A study of Mus musculus with 8 samples.

Results

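Antigen presentation and interferon response genes were followed as a set of 40 genes, fixed by name, across the cell populations of the mouse dentate gyrus after sham surgery or traumatic brain injury. The set held 11 genes of class I presentation, 5 of class II presentation, 5 transcription factors of the interferon pathway, 15 interferon-stimulated genes and 4 interferon receptor subunits, out of 31053 genes in the count tables. All 40 had at least 1 UMI (unique molecular identifier, the tag that marks 1 captured RNA molecule) in each library. The cells came from the dentate gyri of Nestin-GFP mice aged 8 weeks, 15 days after surgery, which was a sham craniotomy in the Control group and a unilateral controlled cortical impact in the TBI group. Both groups carried the same reporter, in which the Nestin promoter drives GFP, and GFP-positive cells were sorted, so a population is present only as far as it passed this gate. Tissue was pooled within a condition. Each condition was therefore 1 library, a difference between Control and TBI had no replicate check, and no p-value was computed. Every interval given here is a 95% interval that covers counting error only.

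Class I molecules carry peptides from inside the cell to its surface and are made of a heavy chain (H2-K1, H2-D1, H2-T23) and the light chain B2m. The immunoproteasome subunits Psmb8, Psmb9 and Psmb10 cut the peptides, Tap1 and Tap2 move them into the endoplasmic reticulum, and Tapbp helps to load them. Class II molecules (H2-Aa, H2-Ab1, H2-Eb1, with the invariant chain Cd74) present material taken up from outside and are a property of professional antigen presenting cells. Type I interferon acts through Ifnar1 and Ifnar2, and type II interferon through Ifngr1 and Ifngr2. Stat2 and Irf9 carry the type I signal to the interferon-stimulated response element in the promoters of antiviral genes such as Ifit1, Isg15 and Rsad2, while Irf1 and Nlrc5 act on class I genes and Ciita on class II genes. In the healthy brain most neural cells hold little class I RNA, whereas microglia and vascular cells hold more.

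The Control library held 3049 cells with a median of 6928 UMIs and the TBI library 5036 cells with a median of 5663. Cells were clustered without the 40 genes and named by marker genes, which gave 371 Control and 537 TBI progenitors (neural stem cells and radial glia-like cells), 575 and 1012 neuron-like cells, 741 and 709 astrocyte-like cells, 28 and 55 oligodendrocyte precursors (OPC), 569 and 1101 oligodendrocytes, 263 and 567 endothelial cells, 261 and 648 mural cells, and 21 and 62 microglia. Each population held its own markers (the summed endothelial markers stood at 18332 CPM in Control and 19171 in TBI endothelial cells, and the microglial ones at 24024 and 19292 in microglia). A cluster of 17 and 28 cells led by Ccl5 and Lyz2 held microglial markers but led with genes of other immune cells, so it was kept apart, and 203 and 317 cells stayed unnamed. CPM is a depth-scaled level, in which the UMIs of a gene are divided by all UMIs of the population in that library, here leaving out Malat1, and brought to a common total.

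Of the 40 genes, 11 lie on chromosome 17 in the annotation of build GRCm38, among them H2-K1 (chr17:33996017-34000347), H2-D1 (chr17:35262730-35267499), Psmb8 (chr17:34197721-34201454) and Tap1 (chr17:34187553-34197225), all protein coding. B2m lies apart from them at chr2:122147686-122153083. RefSeq promoter windows of the same build, from 250 bases before to 50 after a gene's start, were matched for 33 of the 40 genes, some of which had more than 1 window (38 in all). A gene was counted when any of its windows held the motif. They were searched on both strands for the interferon-stimulated response element, taken as GAAA, any 2 bases and GAAA, and for a shorter form, GAANNGAAA; matches to both can overlap. One or the other was in the window of 15 of the 33 genes, against 10.4% of all 32851 windows. By group the count was 10 of 13 interferon-stimulated genes, 4 of 9 class I genes, 1 of 5 transcription factors, 0 of 2 class II genes and 0 of 4 receptors.

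The windows printed here are those of the 3 class I genes that, among those with at least 100 UMIs, differed most between the libraries in oligodendrocytes and of a pair of interferon-stimulated genes that were high in endothelial cells, written 5′ to 3′ on the gene's strand, with matches to either element in capitals. They span chr2:122147437-122147736 (plus strand) for B2m, chr17:34000298-34000597 (minus strand) for H2-K1, chr17:35262844-35263143 (plus strand) for H2-D1, chr19:34640639-34640938 (plus strand) for Ifit1 and chr4:156200769-156201068 (minus strand) for Isg15.
B2m: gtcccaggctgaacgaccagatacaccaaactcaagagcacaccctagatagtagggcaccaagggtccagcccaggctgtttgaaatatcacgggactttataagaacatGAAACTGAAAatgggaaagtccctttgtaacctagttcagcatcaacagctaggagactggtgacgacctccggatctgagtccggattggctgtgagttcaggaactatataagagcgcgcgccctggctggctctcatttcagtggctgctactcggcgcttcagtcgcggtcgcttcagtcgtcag
H2-K1: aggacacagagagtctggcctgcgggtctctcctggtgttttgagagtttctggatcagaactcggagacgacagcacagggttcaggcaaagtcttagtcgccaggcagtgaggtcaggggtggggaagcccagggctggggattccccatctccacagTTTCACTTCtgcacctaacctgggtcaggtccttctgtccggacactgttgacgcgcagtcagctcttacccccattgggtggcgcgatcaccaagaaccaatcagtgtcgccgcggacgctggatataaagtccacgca
H2-D1: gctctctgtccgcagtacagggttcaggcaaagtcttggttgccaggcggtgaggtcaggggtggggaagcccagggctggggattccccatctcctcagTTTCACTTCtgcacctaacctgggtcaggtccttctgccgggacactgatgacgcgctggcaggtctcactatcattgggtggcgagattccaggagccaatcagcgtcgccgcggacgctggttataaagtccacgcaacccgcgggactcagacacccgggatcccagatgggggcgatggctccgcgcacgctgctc
Ifit1: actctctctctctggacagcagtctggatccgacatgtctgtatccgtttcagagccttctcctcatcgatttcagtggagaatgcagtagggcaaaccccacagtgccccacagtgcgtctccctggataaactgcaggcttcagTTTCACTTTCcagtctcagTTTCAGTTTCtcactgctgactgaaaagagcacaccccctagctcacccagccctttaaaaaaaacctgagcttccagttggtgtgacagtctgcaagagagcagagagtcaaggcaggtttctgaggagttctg
Isg15: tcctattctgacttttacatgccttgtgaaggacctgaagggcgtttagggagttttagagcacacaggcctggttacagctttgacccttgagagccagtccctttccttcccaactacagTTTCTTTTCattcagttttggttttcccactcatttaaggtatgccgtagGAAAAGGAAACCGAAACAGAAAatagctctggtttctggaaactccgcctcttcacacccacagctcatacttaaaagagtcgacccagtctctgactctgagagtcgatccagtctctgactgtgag
Distances are from the start RefSeq gives. For H2-D1 that start lies 364 bases after the one in the annotation used above, so its printed window lies inside the gene as given there. The B2m window held the longer form 139 bases before the start. H2-K1 and H2-D1 held the same letters of the shorter form on the opposite strand, 90 and 150 bases before the RefSeq start. Ifit1 held the longer form on the opposite strand at 2 places, 104 and 85 bases before the start, and Isg15 had matches at 4 places, 3 of which overlapped. A match is a description of these letters and not of a site in use.

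With both libraries added, endothelial cells were first in the order of levels for 24 of the 40 genes, microglia for 11, mural cells for 3, and OPC and neuron-like cells for 1 each. For 28 genes the interval of the first population lay apart from that of the second, and for 35 the same population was first in Control and in TBI. Progenitors, astrocyte-like cells and oligodendrocytes were first for none. No minimum of UMIs was set for this order. Over the 8 populations H2-Aa had 2 UMIs, Ciita 13, H2-Eb1 21, H2-Ab1 31 and Nlrc5 37. In the population that came first, Ciita had 5 and 6 in Control and TBI neuron-like cells. Nlrc5 had 11 and 6 in endothelial cells, H2-Eb1 6 and 8 in mural cells and H2-Ab1 3 in each microglial library. H2-Aa, first in microglia, had 0 UMIs in the other named populations. It counts as apart only against progenitors (up to 0.318 CPM), and a count of 0 allows up to 10.1 CPM in TBI OPC. The counts of first populations and of separate intervals over all genes are not given, so the order is a description of these 40 genes only. Levels are compared here between populations for 1 gene at a time and not between genes.

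**Figure D1:**
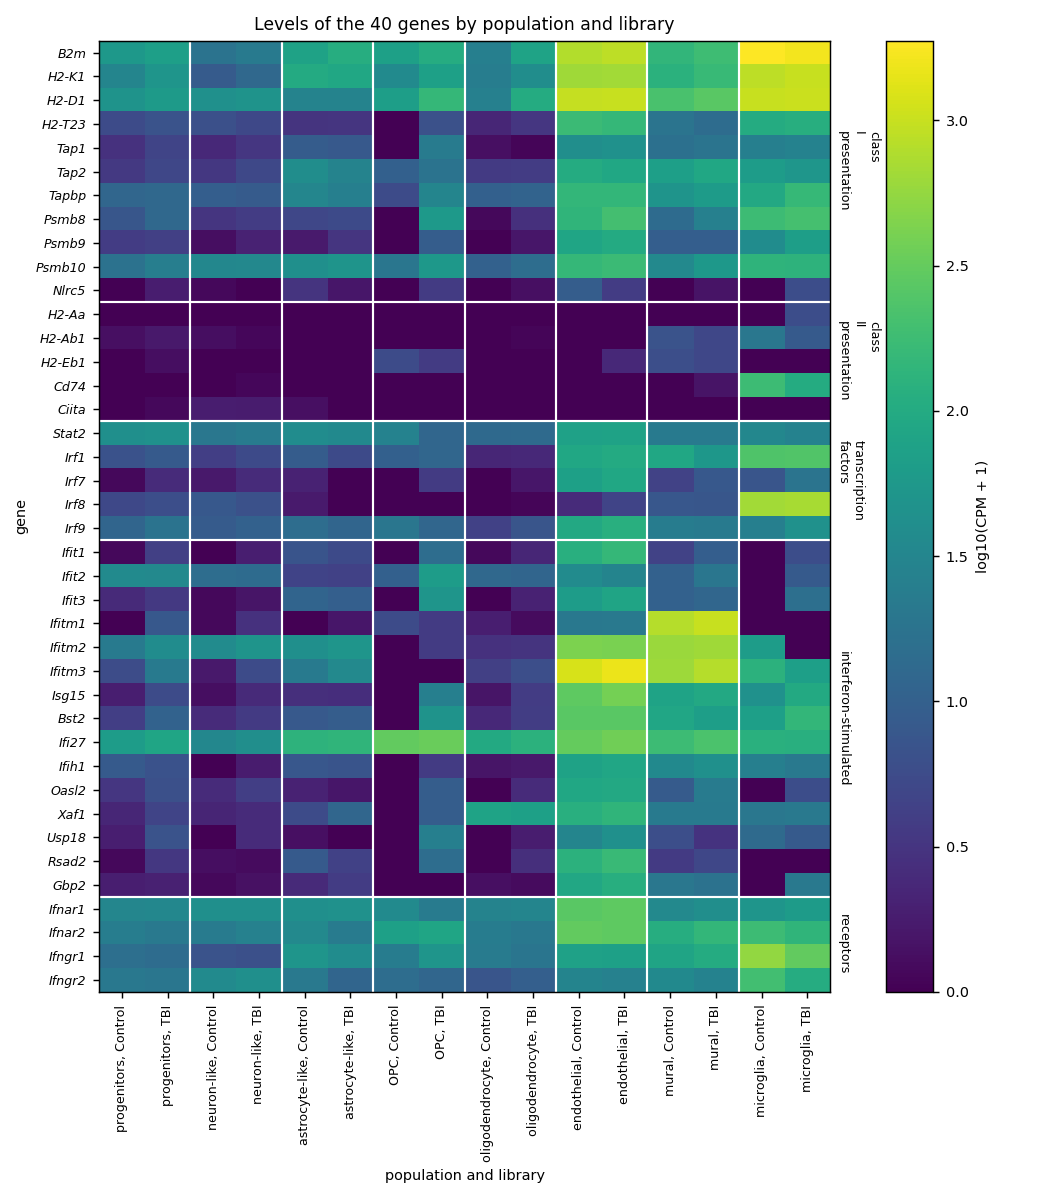
Levels of the 40 genes (rows, by group) in the 8 populations, with Control and TBI side by side (columns), as log10(CPM + 1) on the colour scale. The endothelial, mural and microglial columns are the brightest for most class I genes. The endothelial columns are the brightest for most interferon-stimulated genes, and class II genes are low outside microglia.

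Among the class I genes, B2m stood at 1881 CPM in Control and 1659 in TBI microglia, at 779.6 and 885 in endothelial cells, and at 142 and 178 in mural cells. The neural and glial lineage populations were lower, with 77.1 and 108 CPM in astrocyte-like cells and 72.7 and 107 in OPC. The lowest level was in neuron-like cells, 16.6 CPM in Control and 21.5 in TBI. H2-K1 kept the order of microglia (893 and 1009 CPM), endothelial cells (638 and 663) and mural cells (123 and 159). For H2-D1, microglia (988 and 1016 CPM) and endothelial cells (967 and 996) did not differ beyond their intervals. After thinning every cell to 2000 UMIs, H2-D1 was seen in 79.7% of Control and 77.2% of TBI endothelial cells but in 8.48% and 8.76% of neuron-like cells. The transporter Tap1, at 40.4 and 43.7 CPM in endothelial cells, was at 0.353 and 0.115 CPM in oligodendrocytes. H2-K1, H2-D1 and other class I heavy chain genes are close copies of each other, so the split of reads between them is uncertain, as it is between Ifit1 and Ifit3 and among the Ifitm genes.

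Class II RNA was sparse. Cd74 had 28 UMIs in Control microglia (176 CPM, 117 to 255) and 41 in TBI microglia (101 CPM, 72.8 to 138), and 1 UMI each in TBI mural and TBI neuron-like cells. It had 0 UMIs in oligodendrocytes, endothelial cells, astrocyte-like cells, progenitors and OPC of either library; in oligodendrocytes a count of 0, read as a limit of 3 counts over the total, allows up to 0.529 CPM in Control and 0.346 in TBI. H2-Aa reached 2 UMIs in TBI microglia and H2-Ab1 3 in each microglial library, while H2-Eb1 had none there and 6 and 8 UMIs in mural cells. Ciita, the master regulator of class II genes, had at most 6 UMIs in any population. At 2000 UMIs per cell, 1 of 62 TBI microglia and 0 of 21 Control microglia (0%, up to 16.1%) held 2 or more of H2-Aa, H2-Ab1, H2-Eb1 and Cd74. Without thinning 2 cells of each library did. In Control microglia 1 cell held 18 of the 31 class II UMIs, so the Control level rests largely on that cell. The Ccl5/Lyz2 cluster, kept apart from microglia, has Cd74 among its leading genes. It held 2 Cd74 UMIs in Control and 47 in TBI, most of the latter in 1 cell. The Cd74 levels of microglia in both libraries therefore depend on that split.

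The transcription factors split between the vascular cells and microglia. Irf8, a factor of microglia and other myeloid cells, was at 654 CPM in Control and 697 in TBI microglia and at no more than 7.01 CPM in the other named populations. Irf1 was also highest in microglia, at 233 and 245 CPM. Irf7, which amplifies type I interferon production, was at 72.6 and 87.8 CPM in endothelial cells, and its interval there lay apart from that of microglia. Irf9 and Stat2 were likewise highest in endothelial cells, at 94.3 and 117 CPM and at 74.8 and 75.6 CPM.

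Interferon-stimulated genes were mostly endothelial. Isg15, a ubiquitin-like protein, was at 293 CPM in Control and 386 in TBI endothelial cells. Rsad2, an antiviral enzyme, was at 128 and 163 CPM there and at no more than 13.7 CPM in the other named populations. Ifit1, which binds foreign RNA, was at 115 and 151 CPM in endothelial cells and at no more than 13.7 CPM in the other named ones. The membrane proteins of the Ifitm family followed another order. Ifitm1 was at 819 and 1008 CPM in mural cells against 19.5 and 20.2 in endothelial cells, and Ifitm2 was also highest in mural cells. Ifitm3 was at 1196 and 1501 CPM in endothelial cells and at 624 and 816 in mural cells. Xaf1 was second highest in oligodendrocytes, at 77.9 and 70.9 CPM, where most of the other interferon-stimulated genes were near 0, and Ifi27 was at 309 and 335 CPM in OPC. Among the receptors, Ifnar1 (270.1 and 292 CPM) and Ifnar2 (311 and 291) were highest in endothelial cells and Ifngr1 and Ifngr2 in microglia.

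The comparison of TBI with Control asks which of these cells hold more or less of the same RNA 15 days after the injury. A gene was compared in a population when it had at least 100 UMIs over both libraries, and a level was said to rise or fall when it differed by at least 1.5-fold. The clearest case was the oligodendrocyte population, in which B2m, H2-K1 and H2-D1 rose and none of the 13 genes compared fell. Oligodendrocytes make myelin and are not counted among professional antigen presenting cells. B2m rose from 24.9 CPM (141 UMIs) to 79.0 (685 UMIs), a log2 ratio of 1.67 (1.41 to 1.94). H2-D1 rose from 25.6 CPM (145 UMIs) to 101 (878 UMIs), a log2 ratio of 1.99 (1.73 to 2.25). H2-K1 rose from 23.3 to 39.7 CPM, a log2 ratio of 0.77 (0.48 to 1.07). Of all 8610 genes compared in oligodendrocytes 0.941% rose and 0.836% fell, and the median log2 ratio of all genes was -0.01 against 0.13 for the 13.

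The rest of the class I machinery in oligodendrocytes stood at low levels. Psmb10 went from 9.34 to 14.0 CPM, a log2 ratio of 0.58 (0.10 to 1.07), just short of the limit, and Tapbp from 9.17 to 10.0. Psmb8 had 1 UMI in Control and 16 in TBI, and Tap1 had 2 and 1. The sum of the 11 class I genes was 96.6 CPM in Control and 252 in TBI, a ratio of 2.61. The receptors of oligodendrocytes differed little, with Ifnar1 at 28.2 and 30.2 CPM and Ifngr1 at 21.7 and 17.7. Nor did the interferon-stimulated genes with enough UMIs pass the limit, with Ifi27 at 97.1 and 128 CPM, Xaf1 at 77.9 and 70.9 and Ifit2 at 11.6 and 10.7. Rarer ones had few UMIs. Isg15 had 3 in Control and 24 in TBI, Rsad2 0 and 15, Oasl2 0 and 13, Ifit1 1 and 11 and Ifit3 0 and 9. Bst2 had 8 and 25, Usp18 0 and 7, Ifitm3 18 and 45, Ifitm2 11 and 18 and Ifih1 3 and 6. Ifitm1, with 5 and 2, and Gbp2, with 2 and 2, were lower in TBI by CPM. Over the 10 interferon-stimulated genes other than the Ifitm genes, Ifi27 and Xaf1, 6 TBI cells with at least 4 of them held 81 of 205 UMIs. Without such cells the 10 genes summed to 13.3 CPM in Control and 14.4 in TBI, against 14.6 and 23.6 with them. The cells were picked by the same 10 genes, so leaving them out lowers the sums by design and is a description only.

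By CPM, the difference was seen in most oligodendrocyte clusters. H2-D1 was higher in TBI in each of the 6 clusters of over 200 cells, with log2 ratios from 0.98 in cluster 16 to 2.44 in cluster 11. The interval lay above 0 in 5 of them, and in cluster 15, which had 2 and 6 UMIs, it included 0. B2m was also higher in each of the 6, whereas H2-K1 was at 81.3 and 68.6 CPM in cluster 14 and at 33.9 and 35.2 in cluster 17. Shares of cells with a UMI at 2000 UMIs per cell differed less evenly. H2-D1 was seen in 2.83% of Control and 12.3% of TBI cells in cluster 11, but in 11.6% and 11.3% in cluster 17 and in 3.95% and 4.79% in cluster 16. B2m was seen in 1.32% and 12.0% in cluster 16, but in 6.98% and 8.67% in cluster 17 and in 1 of 59 and 0 of 25 cells in cluster 15. Cluster 14 came mostly from the TBI library (31 Control and 225 TBI cells) and held endothelial markers at 402 and 350.0 CPM. Without it the log2 ratio of the class I sum was 1.24 in place of 1.38, and B2m, H2-K1 and H2-D1 all stayed past the limit. Over all oligodendrocytes the microglial markers were at 25.6 and 23.8 CPM and the endothelial markers at 35.8 and 89.1 CPM, against 19171 CPM in the TBI endothelial cells themselves.

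**Figure D2:**
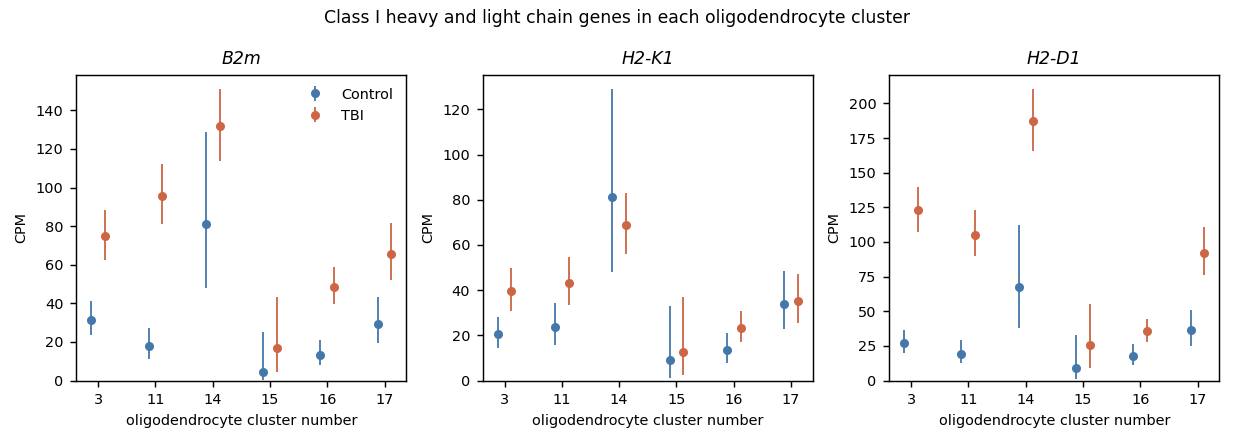
Levels of B2m, H2-K1 and H2-D1 in CPM (vertical axes) in the 6 oligodendrocyte clusters of over 200 cells (horizontal axes) in the Control and TBI libraries, with exact 95% Poisson intervals. TBI lies above Control in every cluster for B2m and H2-D1, with overlapping intervals in clusters 14 and 15 for B2m and in cluster 15 for H2-D1, and H2-K1 does so in 5 of the 6 clusters, not in cluster 14.

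The rise was uneven between cells. At 2000 UMIs per cell, at least 1 of B2m, H2-K1 and H2-D1 was seen in 13.6% (10.8 to 16.9) of Control and 24.5% (21.8 to 27.3) of TBI oligodendrocytes, and at least 2 of them in 1.14% and 5.41%. The 5% of cells with the most UMIs of the 3 genes held 34.0% of these UMIs in Control and 49.3% in TBI, where 56 cells had 941 of 1907. In the other 540 Control and 1045 TBI cells the 3 genes summed to 52.3 and 119 CPM. The cells left out had at least 3 UMIs of these genes in Control and at least 7 in TBI. Because the same genes set these unlike cut-offs, the levels of the other cells are a description only. The 56 richest TBI cells came from clusters 3, 11, 14, 16 and 17, with 21 from cluster 14. They kept the oligodendrocyte markers (64934 CPM), 8 of them were called doublets, and their endothelial markers were at 976 CPM against 89.1 over all TBI oligodendrocytes. The same 10 interferon-stimulated genes summed to 172 CPM in them against 23.6 over all TBI oligodendrocytes. These cells were picked by the genes described, so their levels are a description only, and the part of endothelial RNA in them was not tested. With all called doublets left out, B2m, H2-K1 and H2-D1 had log2 ratios of 1.69, 0.72 and 1.97.

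In progenitors 6 of the 16 genes compared rose and none fell, against 2.37% of all genes that rose and 1.76% that fell. The median log2 ratio of the 16 was 0.35 and that of all genes 0.03. H2-K1 rose from 30.3 to 49.7 CPM (log2 ratio 0.71, 0.44 to 0.99), the immunoproteasome subunits Psmb8 from 6.57 to 11.9 and Psmb10 from 16.3 to 24.5, and Irf9 from 10.8 to 16.6. Ifitm2 rose from 21.6 to 38.1 CPM and Ifitm3 from 4.79 to 21.2, a log2 ratio of 2.14 (1.53 to 2.80). B2m (55.4 and 70.2 CPM) and H2-D1 (46.8 and 59.9) differed in the same direction by less than the limit. The 4 receptors had log2 ratios from -0.22 to 0.02. After thinning to 2000 UMIs per cell 3 of the 40 genes could still be compared and none passed, and Psmb10 then had a log2 ratio of -0.26.

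Mural markers moved with these values in the TBI progenitors. The summed mural markers were at 18.1 CPM in Control and 305 in TBI progenitors, the endothelial ones at 14.6 and 60.4 and the oligodendrocyte ones at 130.4 and 486, and their part in the difference was not tested. Of the 1814 mural marker UMIs in TBI progenitors 1272 were in cluster 20, a group of 55 Control and 133 TBI cells led by genes such as Eomes and Neurod4, with mural markers at 7.57 and 982 CPM and 9.04% called doublets. Ifitm1, the gene highest in mural cells, had 0 UMIs in Control and 42 in TBI progenitors, 31 of them in cluster 20. Without cluster 20, 3 of the 15 genes compared rose and none fell, and leaving out called doublets over all progenitors gave the same count with Ifitm3 at a log2 ratio of 1.38. The shares of all genes under these settings are not given, so the counts are a description only. In cluster 21, where mural markers were at 19.2 and 23.8 CPM, the class I sum was at 147 and 191 CPM and Ifitm3 had 2 and 13 UMIs. The progenitor clusters 12, 22 and 28 are not given, so nothing is read from cluster 21 alone.

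**Figure D3:**
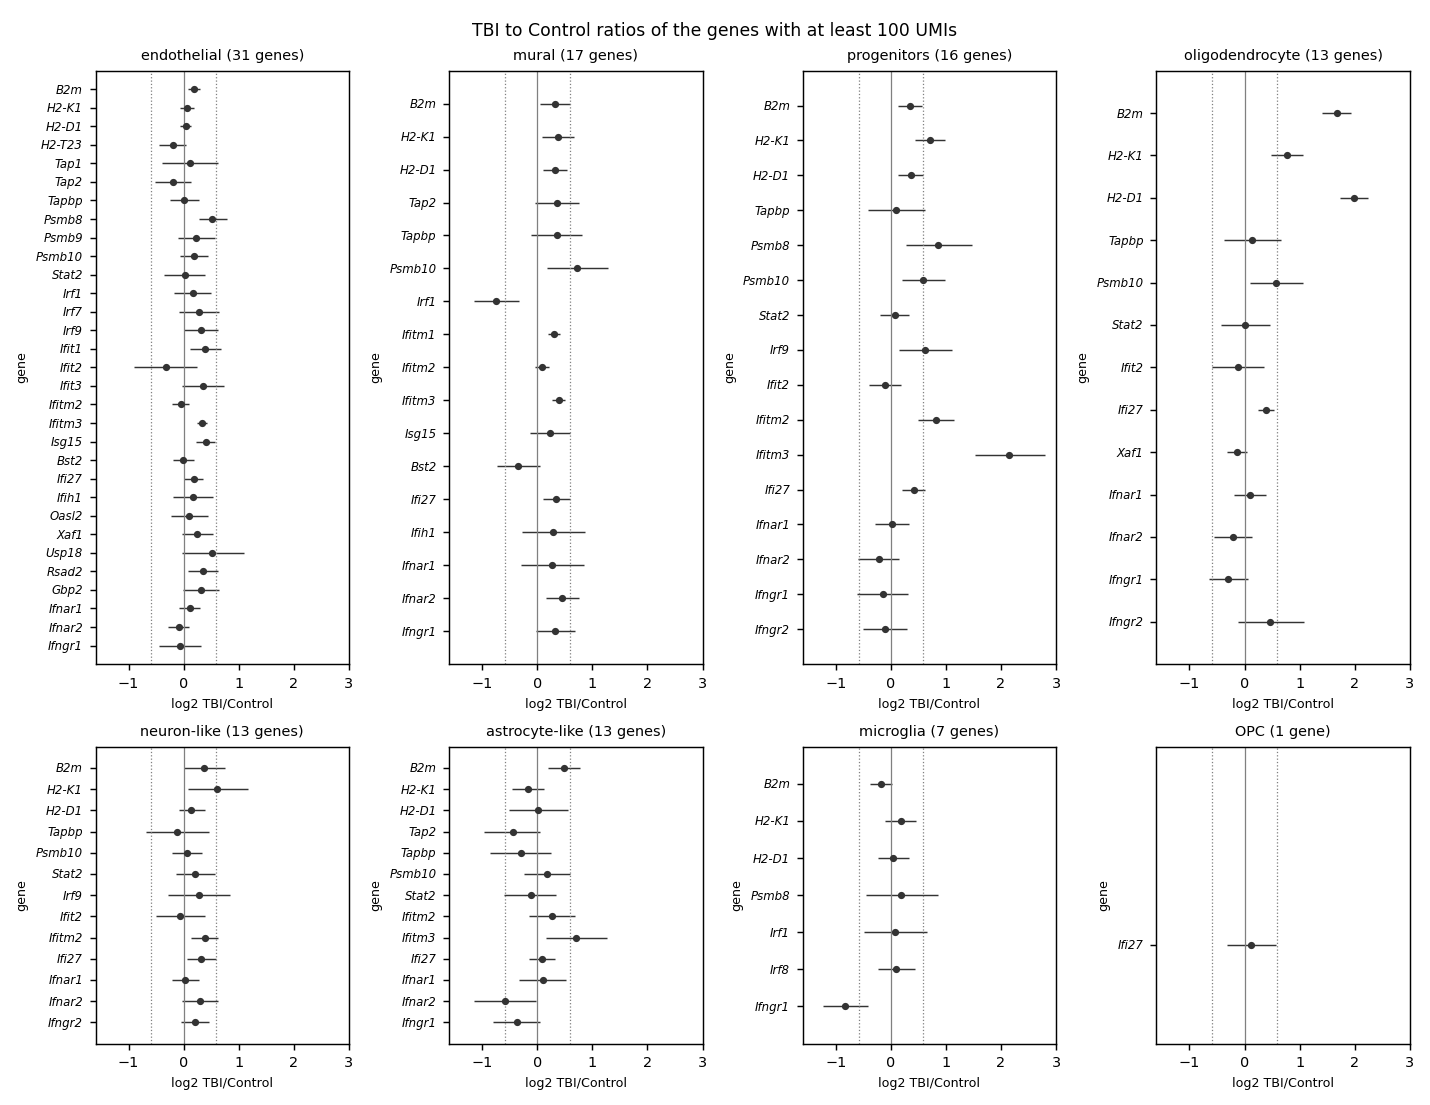
Log2 ratio of TBI to Control (horizontal axes) of each of the 40 genes that had at least 100 UMIs in a population (vertical axes), 1 panel per population, with exact 95% intervals for counting error and dotted lines at 1.5-fold. The widest shifts are H2-D1 and B2m in oligodendrocytes and Ifitm3 in progenitors, and most endothelial genes sit slightly right of 0 within the dotted lines.

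In endothelial cells, where the set is highest, none of the 31 genes compared passed the limit, against 1.46% of all genes that rose and 1.01% that fell. Of the 31, 24 had a ratio above 1, as had 53.6% of all genes, and 7 had an interval above 0 while none had one below, against 6.71% and 4.79% of all genes. Psmb8 was at 137 and 196 CPM (log2 ratio 0.52, 0.27 to 0.78), Isg15 at 293 and 386 (0.40, 0.22 to 0.57), Ifit1 at 115 and 151 (0.39, 0.11 to 0.68) and Ifitm3 at 1196 and 1501 (0.33, 0.24 to 0.42). H2-K1 and H2-D1 had log2 ratios of 0.06 (-0.07 to 0.18) and 0.04 (-0.06 to 0.14), and neither interval reached the interval of the same gene in oligodendrocytes. The sum of the 15 interferon-stimulated genes was at 3275 CPM in Control and 3849 in TBI, and it was higher in TBI in each of the 3 endothelial clusters, by log2 ratios of 0.16 to 0.26. Red blood cell genes summed to 9226 CPM in Control and 1609.6 in TBI endothelial cells and mural markers to 522 and 726, and their part in these values was not tested.

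Cells that held several interferon-stimulated genes at once were most frequent in endothelial cells. For this count the 10 genes Ifit1, Ifit2, Ifit3, Isg15, Bst2, Ifih1, Oasl2, Usp18, Rsad2 and Gbp2 were used, a choice made after seeing that Ifitm1, Ifitm2, Ifitm3, Ifi27 and Xaf1 were common in whole populations. The 10 genes summed to 1196 CPM in Control and 1417 in TBI endothelial cells, against 257 and 285 in mural cells. The share of such cells rises with this level, so it is a description and not a separate trait. At 2000 UMIs per cell, at least 4 of the 10 were seen in 34 of 251 Control endothelial cells (13.5%, 9.57 to 18.4) and in 93 of 535 TBI cells (17.4%, 14.3 to 20.9). Without thinning the counts were 83 of 263 and 189 of 567 cells. Those cells held 1134 of 1598 UMIs of the 10 genes in Control and 2081 of 3016 in TBI, and the rest of the endothelial cells stood at 551 and 728 CPM. In progenitors, neuron-like cells, astrocyte-like cells, oligodendrocytes and mural cells at most 2 cells of a library passed at 2000 UMIs. With all 15 genes the shares were 44.2% and 55.0% of endothelial and 26.0% and 32.7% of mural cells.

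**Figure D4:**
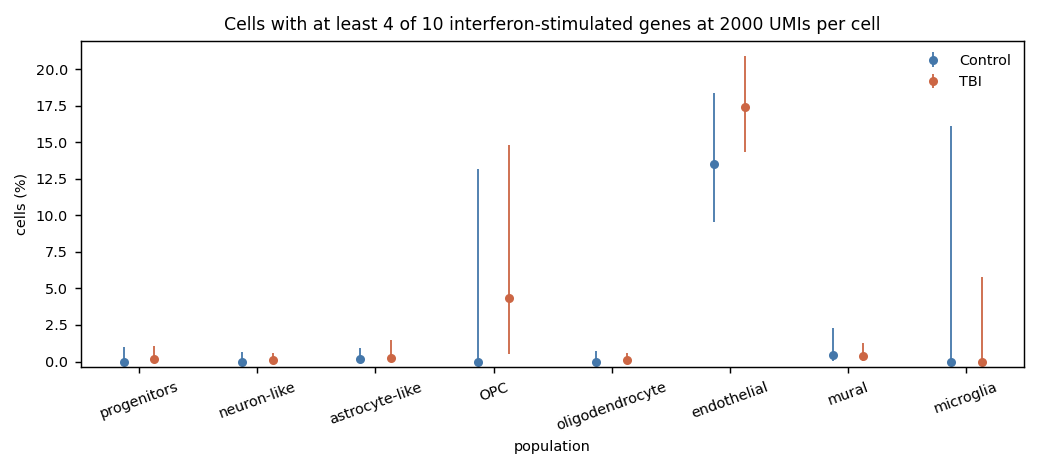
Percent of cells (vertical axis) with at least 4 of 10 interferon-stimulated genes after thinning to 2000 UMIs, for the 8 populations (horizontal axis) in Control and TBI, with exact binomial 95% intervals. Endothelial cells are at 13.5% and 17.4% and most other populations near 0, and the intervals of OPC and microglia are wide because few cells were available.

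In mural cells 1 of 17 genes rose and 1 fell, with 7.15% of all genes rising and 5.05% falling. These counts are small and near the shares of all genes, so nothing is read from them and the genes are described singly. Psmb10 rose from 33.3 to 54.9 CPM (log2 ratio 0.72, 0.18 to 1.29). Irf1 fell from 88.7 CPM (104 UMIs) to 52.9 (107 UMIs), a log2 ratio of -0.75 (-1.15 to -0.34). Irf1 was unevenly spread within the population, with 1.95 and 9.67 CPM in cluster 0, 160.0 and 162 in cluster 29 and 217 and 66.6 in cluster 9. Cluster 9 had 39 Control and 263 TBI cells, so the clusters had different weights in each library. This weighting also touched Ifitm1, which over all mural cells was at 819 and 1008 CPM, but at 1362 and 1099.9 in cluster 0 and at 1623 and 1186 in cluster 9. The class I heavy chains H2-D1 (218 and 273 CPM) and H2-K1 (123 and 159) differed by less than the limit. Endothelial markers in mural cells were at 150.1 CPM in Control and 295 in TBI, and their part was not tested.

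Microglia, with 21 Control and 62 TBI cells, allowed 7 genes to be compared, of which none rose and Ifngr1 fell, against 5.12% and 6.71% of all genes. The count is small and nothing is read from it. Ifngr1, the binding subunit of the type II receptor, was at 547 CPM in Control and 307 in TBI (log2 ratio -0.84, -1.24 to -0.42). Ifngr2, its partner subunit with fewer than 100 UMIs, was at 189 and 104 CPM. The immediate early genes, which respond within minutes to stimulation or to cell isolation, were lower in the TBI microglia too, at a summed 34756 and 26319.8 CPM, and their part in the difference was not tested. Class I genes stood level, with a log2 ratio of the sum of 0.01 (-0.11 to 0.14). The 10 interferon-stimulated genes summed to 24 UMIs in Control (151 CPM) and 131 in TBI (324 CPM), a log2 ratio of 1.10 (0.47 to 1.79). Of the TBI UMIs 35 came from 2 cells, picked by these genes, and without them the TBI sum was 246 CPM. Bst2 held 11 of the Control and 60 of the TBI UMIs of the 10 genes, and Isg15 held 7 and 39. After thinning, none of the 10 was seen in 20 of 21 Control (95.2%) and 37 of 62 TBI microglia (59.7%). The sum of all 15 interferon-stimulated genes had a log2 ratio of 0.14 (-0.24 to 0.54). Of the genes that only this sum holds, Ifitm2 had 10 UMIs in Control and 0 in TBI, and Ifitm1 had none. Ifitm3 was at 126 and 69.2 CPM, Ifi27 at 119.5 and 114 and Xaf1 at 18.9 and 19.8. Mural markers were at 12.6 and 96.4 CPM in these libraries' microglia, neuron-like markers at 6.29 and 124 and astrocyte-like markers at 277 and 438, and their part was not tested.

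Neuron-like and astrocyte-like cells each had 1 gene of 13 that rose and none that fell. In neuron-like cells H2-K1 rose from 7.70 to 11.7 CPM (log2 ratio 0.61, 0.08 to 1.16), where 0.815% of all genes rose and 1.16% fell. The other class I heavy chain H2-D1 was at 42.8 and 47.3 CPM there, a log2 ratio of 0.14 (-0.09 to 0.38). In astrocyte-like cells Ifitm3 rose from 20.5 to 33.5 CPM (log2 ratio 0.71, 0.16 to 1.26), with 0.882% of all genes rising and 1.66% falling. B2m was at 77.1 and 108 CPM in these cells, whereas H2-K1 (98.0 and 87.0) and Tap2 (38.8 and 28.4) were lower in TBI by less than the limit. With cells of over 10% mitochondrial UMIs left out, H2-K1 in neuron-like cells had a log2 ratio of 0.56, below the limit, and Ifitm3 in astrocyte-like cells one of 1.06 on fewer than 100 UMIs. Endothelial markers were at 8.04 and 25.4 CPM in neuron-like cells, and choroid plexus genes at 1435 and 218 CPM in astrocyte-like cells; their part was not tested.

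In OPC only Ifi27 had enough UMIs, at 309 and 335 CPM, so no gene passed, where 19.4% of all genes rose and 10.8% fell. The class I sum was 46 UMIs in 28 Control cells (209 CPM) and 192 UMIs in 55 TBI cells (527 CPM), a log2 ratio of 1.33 (0.86 to 1.83). Oligodendrocyte markers were at 23292 CPM in Control and 5612 in TBI OPC, and the part of this difference was not tested. The 10 interferon-stimulated genes summed to 2 UMIs in Control (9.09 CPM) and 90 in TBI (247 CPM), and 2 of the 55 TBI cells held 56 of the 90. Those cells were picked by these genes, and without them the TBI sum was 97.2 CPM. In the cluster led by Ccl5 and Lyz2, Cd74 was at 65.8 CPM in Control and 1027 in TBI, and 1 TBI cell held 65 of the 68 class II UMIs.

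Other genes of the pathway, 44 found of 45 listed, are given by counts. In progenitors 2 of 17 rose, the ubiquitin ligase Rnf213 from 7.99 to 17.0 CPM and the class I gene H2-Q4 from 9.58 to 15.6. In mural cells 2 of 15 rose, Gbp7 (29.8 to 56.3 CPM) and Irf3 (58.0 to 97.4). In OPC 1 of 3 rose, the chaperone Calr (677 to 1065 CPM), and in microglia 1 of 9 fell, the signalling inhibitor Socs3 (944 to 512 CPM). Of all genes 2.37% rose in progenitors, 7.15% in mural cells and 19.4% in OPC, and 6.71% fell in microglia. The counts in mural cells, OPC and microglia are small and nothing is read from them. None passed of the 13 compared in neuron-like cells, 12 in astrocyte-like cells, 11 in oligodendrocytes and 34 in endothelial cells. In these populations the shares of all genes that rose or that fell lay between 0.815% and 1.66%.

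Immediate early genes did not follow one direction. Of 12 listed, 4 of 9 compared rose in oligodendrocytes, 3 of 12 in endothelial cells and 5 of 12 in mural cells, whereas 3 of 10 fell in progenitors and 3 of 10 in microglia. In neuron-like cells 1 of 11 rose, in astrocyte-like cells 1 of 7 fell and in OPC 1 of 2 rose. Of all genes 0.941% rose in oligodendrocytes, 1.46% in endothelial and 7.15% in mural cells, and 1.76% fell in progenitors and 6.71% in microglia. Among neuron-like cells 0.815% rose, among astrocyte-like cells 1.66% fell and among OPC 19.4% rose. In oligodendrocytes Fos was at 20.3 and 60.3 CPM and Egr1 at 16.0 and 30.3 CPM, beside the rise of the class I genes, and the part of cell handling in either was not tested.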

How the data were processed

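Single-cell RNA was measured in GFP-sorted dentate gyrus cells with the 10x Genomics Chromium 3' kit, v3. Reads were turned into counts by the authors in Cell Ranger 3.0.2 with GRCm38/mm10, per the labels, and each deposited table gives UMI counts as whole numbers, with genes and barcodes as its axes and no normalization. The labels list 4 Control and 4 TBI animals, whereas the study's methods give other numbers, so how many were pooled into the 1 library of each condition is uncertain. Which of the 2 tables was Control and which TBI was read from cell barcodes listed by the study: 356 of 356 Control and 320 of 320 TBI barcodes were in the matching table and 0 in the other; 3 barcodes occur in both libraries.

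The 40 genes, the marker lists and the other lists were chosen with earlier results of these data known. Barcodes needed 200 detected genes and a log UMI total no more than 3 scaled median absolute deviations from the median. This left 3049 of 3086 in Control (24629521 UMIs) and 5036 of 5081 in TBI (31503415 UMIs). Scrublet (scanpy 1.11.5) called 37 and 108 doublets, which stayed in unless stated. Clustering used Seurat 5.3.0 in R 4.3.3, with canonical correlation integration, 2000 variable genes, 20 dimensions and resolution 3.0. The 40 genes, the other pathway genes and Malat1 were left out of it. Clusters were named from fixed markers when at least 3 were detected in 10% of cells, so cell names are rebuilt and not the authors' own. A cluster with median UMIs below 0.333 of each library's median stayed unnamed when its 10 leading genes held none of its markers. It also stayed unnamed when those 10 genes held more markers of another class or list than of its own. The Ccl5/Lyz2 cluster was set apart after its leading genes, Cd74 among them, were seen.

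CPM were computed per population and library, with exact Poisson intervals; ratios have exact conditional binomial intervals (scipy 1.17.1). Genes needed 100 UMIs and a 1.5-fold difference. All 40 genes could be named, and of the other pathway genes those past the limit, at most 3 per population; the immediate early genes Fos and Egr1 were named after their values were seen. Promoter windows came from RefSeq (GRCm38.p6). Shares of cells were taken after thinning cells to 2000 UMIs, 2630 Control and 4168 TBI cells. The intervals and ratios were run on simulated Poisson counts, the same model that the intervals assume. The simulation left out the gathering of UMIs in single cells and differences between animals, so it does not cover them.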

Additional observations from a re-analysis of the deposited data

How the results depend on the processing

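Of 326 values recomputed under the alternatives, 276 stayed close to the first value, 49 moved and 1 reversed. The cause of these moves was not tested, except that a lower UMI minimum compares more genes and thinning leaves fewer. The number of genes past 1.5-fold in either direction was as follows. The share of all genes is in parentheses for the lower UMI minimums and is not given for the other settings. With at least 10 UMIs it was 18 of 34 in progenitors (14.4%), 11 of 30 in neuron-like cells (12.4%), 5 of 26 in astrocyte-like cells (14.2%), 11 of 14 in OPC (41.0%), 12 of 25 in oligodendrocytes (12.7%), 10 of 36 in mural cells (24.4%), 10 of 26 in microglia (37.5%) and 2 of 35 in endothelial cells (15.8%). With at least 50 UMIs it was 2 of 15 in astrocyte-like cells (5.13%), 1 of 3 in OPC (29.5%), 5 of 15 in oligodendrocytes (3.93%), 4 of 25 in mural cells (15.5%) and 5 of 15 in microglia (17.7%). Nothing is read from these counts. With a 2-fold limit it was 1 in progenitors and 0 in neuron-like, astrocyte-like and mural cells and microglia. Thinned to 2000 UMIs it was 0 in progenitors, where 3 genes could still be compared, 0 in neuron-like and astrocyte-like cells and microglia, and 1 in mural cells. Progenitors had 3 with doublets left out and 3 without cluster 20. With cells of over 10% mitochondrial UMIs left out it was 0 in neuron-like and astrocyte-like cells, and with mitochondrial genes out of the total 2 in astrocyte-like cells.

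The log2 ratio of the class I sum moved under thinning from 0.46 to 0.26 in progenitors, from 0.04 to 0.25 in astrocyte-like cells, from 1.33 to 1.88 in OPC and from 0.35 to 0.22 in mural cells. Without B2m it was -0.12 in astrocyte-like cells and 0.14 in microglia, and without cluster 14 it was 1.24 in oligodendrocytes. The ratio of the interferon-stimulated sum moved under thinning from 0.66 to 0.35 in progenitors, from 0.17 to 0.44 in astrocyte-like cells, from 0.26 to 0.04 in mural cells and from 0.23 to 0.17 in endothelial cells. It was 0.48 in progenitors with doublets left out, 0.15 in mural cells without cells of over 10% mitochondrial UMIs and 0.16 when centred on the median gene, and 0.83 in microglia clustered without integration. Psmb10 in progenitors reversed to -0.26 under thinning. The log2 ratios of B2m, H2-K1 and H2-D1 in oligodendrocytes kept their direction and stayed past the limit under each alternative run for them, at 1.58 to 1.84, 0.64 to 0.96 and 1.76 to 2.00.

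No paired analysis was possible because each condition was 1 pooled library, which also leaves no replicate to omit. Leaving out single clusters, adding the Ccl5/Lyz2 cluster to microglia and counting 10 interferon-stimulated genes were chosen after seeing the data. Microglia and OPC rest on few cells, and intervals cover counting error only.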

Other observations

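A pair of genes outside the set was looked at after C4b appeared among the leading genes of an oligodendrocyte cluster. In oligodendrocytes C4b, a complement component, stood at 12.0 CPM in Control and 115 in TBI, a log2 ratio of 3.26 (2.90 to 3.63). Serpina3n, a protease inhibitor, stood at 2.47 and 16.4 CPM, a log2 ratio of 2.73 (1.94 to 3.64). C4b was higher in TBI in each of the 6 oligodendrocyte clusters of over 200 cells, from 15 and 62 UMIs in cluster 16 to 8 and 339 UMIs in cluster 11. In astrocyte-like cells C4b was at 45.9 and 43.0 CPM. At 2000 UMIs per cell, B2m was seen in 38 of 146 TBI oligodendrocytes with a C4b UMI (26.0%, 19.1 to 33.9) and in 78 of 834 without one (9.35%, 7.46 to 11.5). H2-D1 was seen in 25.3% (18.5 to 33.2) and 9.59% (7.68 to 11.8) of the same cells. Only 11 Control oligodendrocytes had a C4b UMI, too few for the same comparison.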
